A study of Rattus norvegicus with 39 samples.

Results

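The valine and isoleucine tRNA genes were examined in small RNA sequencing counts from rat sperm. They were taken by name: every row of the genomic tRNA count table whose anticodon label begins with Val or Ile. The rule found 34 of the 402 rows, 20 for valine and 14 for isoleucine. Rows of the same anticodon with identical counts in all libraries cannot be told apart and were treated as 1 row, which left 23 distinct rows of 242. The sperm came from the cauda epididymis of 11 to 12 week old male Fischer rats, labelled wild-type in all groups. The males had received EGME (ethylene glycol monomethyl ether), an industrial solvent known to damage spermatogenic cells, by oral gavage each day for 5 days, and 5 weeks without exposure followed. The groups are called EGME0 (0 mg/kg/d, water vehicle, n = 10), EGME50 (50 mg/kg/d, n = 10), EGME60 (60 mg/kg/d, n = 9) and EGME75 (75 mg/kg/d, n = 10). The labels number each of the 39 libraries once and do not say whether a sample held sperm of a single male, so p-values measure the spread between these samples.

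Transfer RNAs carry amino acids to the ribosome, and the anticodon decides which codons are read. Valine and isoleucine are branched-chain amino acids, as is leucine. Val-AAC and Ile-AAT tRNAs begin their anticodon with a genomic A that cells edit to inosine, which lets 1 tRNA read several codons, while Val-CAC, Val-TAC and Ile-TAT read narrower sets. Mature sperm translate little, and much of their small RNA consists of tRNA fragments, among which fragments of Val-CAC and Val-AAC are well known. The counts do not separate whole tRNAs from fragments.

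Several valine and isoleucine genes in the table shared their reads. Isoleucine had 11 rows for IleAAT (6 distinct) and 3 for IleTAT (3 distinct), and valine had 8 for ValAAC (5 distinct), 7 for ValCAC (5 distinct) and 5 for ValTAC (4 distinct). The set behind trna10837-IleAAT held 6 rows, that behind trna1308-ValAAC 4, that behind trna1307-ValCAC 3 and that behind trna6858-ValTAC 2. Of the 34 rows, 13 were on chromosome 17. The table names a chromosome for each row, without start or end. The count of trna1600-ValCAC was between 98.3% and 102% of that of trna1307-ValCAC in every library, so these rows are near copies and are not independent evidence.

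The tRNA table held 134381 to 12140012 counts per library (median 6168164), with the fewest in EGME75 replicate 24. The distinct valine and isoleucine rows held 4509 to 394769 of them. Their share of the distinct tRNA counts was 6.51% ± 1.51 (SD, n = 10) in controls and 6.38% ± 1.66 (n = 10) at EGME50. It was 7.62% ± 1.68 (n = 9) at EGME60 and 9.61% ± 1.78 (n = 10) at EGME75. In controls ValCAC had a mean share of 3.06% of counts, ValTAC 1.43%, IleAAT 1.23%, ValAAC 0.723% and IleTAT 0.0578%. The ValCAC sum adds the near copies trna1307-ValCAC and trna1600-ValCAC, so reads that they share may be counted more than once. The same holds for the valine sum, the total share above and ratios that contain them. In controls trna1307-ValCAC alone averaged 37620.4 counts per library and trna6858-ValTAC 43861.5, so the place of ValCAC above ValTAC depends on this. At EGME75 the shares were 5.00% for ValCAC, 2.0% for ValAAC, 1.93% for ValTAC, 0.628% for IleAAT and 0.0601% for IleTAT, so ValAAC and IleAAT had changed places in the order, and ValAAC and ValTAC differed by less than their SD. The sperm label was checked against miRNA markers, and germ cell markers were present in every library. The miRNA counts per library were 1098 to 38208 at EGME0 (median 15324.5) and 139 to 8633 at EGME75 (median 3201.5). Shares at EGME75 therefore rest on fewer reads, and the ends of their ranges can rest on very few. Germ cell miRNAs (the miR-34b, miR-34c and miR-449 families) made up a median of 26.3% of miRNA counts at EGME0 (19.8% to 33.1%) and 13.3% at EGME75 (6.47% to 22.1%), and 4 of 5 tested were lower at EGME75. Epithelial miRNAs had a median of 0.872% at EGME0 (0.625% to 1.29%) and 2.49% at EGME75 (1.81% to 4.77%), with 3 of 4 tested higher. Blood cell miRNAs had a median of 0.114% at EGME0 (0% to 0.343%) and 0.788% at EGME75 (0.248% to 4.82%), with 3 of 3 tested higher and miR-486-5p absent from the table. Muscle miRNAs had a median of 1.67% at EGME0 (0.954% to 3.27%) and 3.70% at EGME75 (1.12% to 9.80%), with 1 of 2 tested higher. At EGME50, where no valine or isoleucine row or anticodon was called, 2 of 4 tested epithelial miRNAs were higher (median 1.64%). At EGME60 3 were higher (median 1.42%), so the epithelial medians did not follow the order of dose. The other 3 lists had 0 miRNAs called at EGME50. All 4 lists differed between EGME0 and EGME75, as did tRNA results that follow, and their part in those results was not tested. In bulk samples, fewer cells of a type and less RNA per cell cannot be told apart.

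The main comparison asked how the valine and isoleucine anticodons differed from control at each dose. ValAAC rose and IleAAT fell at EGME60 and EGME75, and the changes were larger at EGME75. ValCAC, ValTAC and IleTAT did not pass the test at any dose in the full fit. Levels are given as CPM, counts scaled to 1000000 per library after trimmed mean of M-values (TMM) scaling. Changes are log2 fold changes ± standard error from edgeR's quasi-likelihood test over all 39 libraries, with Benjamini-Hochberg adjustment over the whole tRNA table and a threshold of 0.05. The 17 distinct rows tested out of 23 were those that passed the filter on low counts.

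ValAAC, summed over its distinct genes, was 5310 to 9607 CPM at EGME0 (median 8381), 6507 to 13250 at EGME50 (median 8463), 7282 to 16148 at EGME60 (median 10623) and 11835 to 23247 at EGME75 (median 15593). All 10 EGME75 libraries lay above every control, while the groups overlapped at the lower doses. The log2 change was 0.16 ± 0.15 at EGME50 (edgeR adjusted p = 0.904), 0.52 ± 0.16 at EGME60 (adjusted p = 0.0158) and 1.03 ± 0.16 at EGME75 (adjusted p = 4.86e-07), the last a 2.04-fold rise. The slope over all 4 groups was 0.90 ± 0.16 per 75 mg/kg/d (adjusted p = 3.22e-05).

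**Figure D1:**
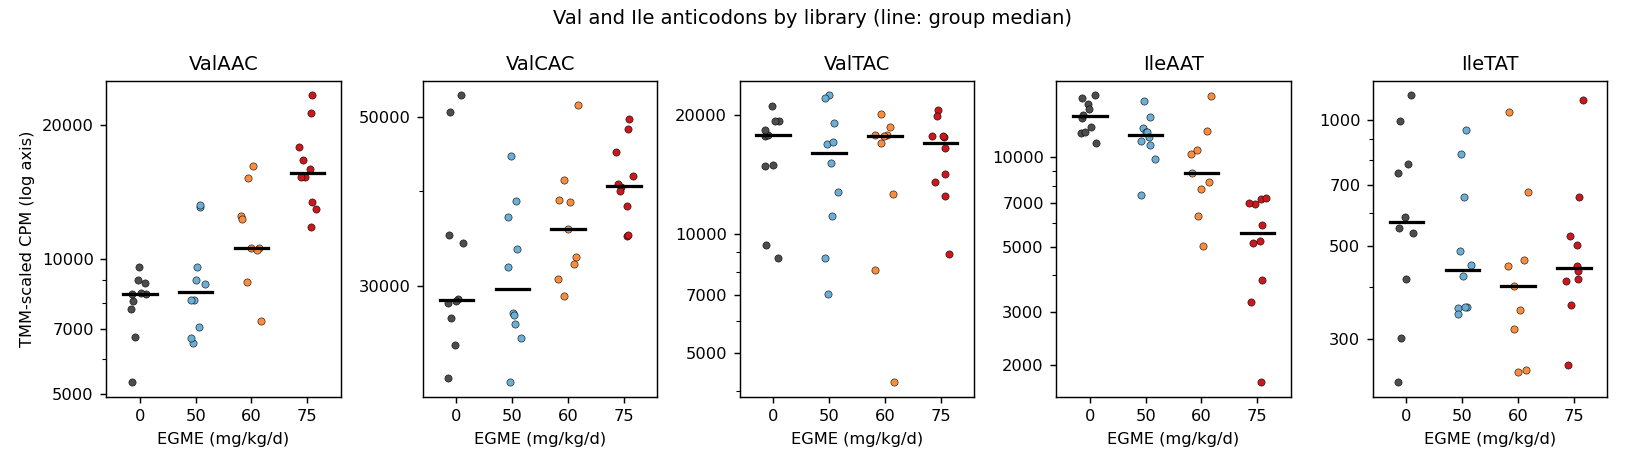
CPM of each of the 5 valine and isoleucine anticodons in every library (points, log axis) at 0, 50, 60 and 75 mg/kg/d EGME, with the group median as a line. At 75 mg/kg/d all ValAAC points lie above the control maximum of 9607 and all IleAAT points below the control minimum of 11202, while ValCAC, ValTAC and IleTAT overlap the control.

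IleAAT was 11202 to 16144 CPM at EGME0 (median 13712), 7436 to 15483 at EGME50 (median 11893), 5022 to 16120 at EGME60 (median 8836) and 1743 to 7303 at EGME75 (median 5564). All 10 EGME75 libraries lay below every control, and 7 of 9 EGME60 libraries did. The log2 change was -0.23 ± 0.19 at EGME50 (edgeR adjusted p = 0.904), -0.53 ± 0.20 at EGME60 (adjusted p = 0.0376) and -1.35 ± 0.19 at EGME75 (adjusted p = 2.34e-07), the last a 2.55-fold fall. The slope was -1.08 ± 0.22 per 75 mg/kg/d (adjusted p = 1.21e-04). The call at EGME60 was lost without any of EGME0 replicate 18 or 34 or EGME60 replicate 14, 21, 22 or 29, with log2 changes of -0.51 to -0.45. It was also lost with library totals alone as scaling (-0.39), without the filter (-0.50), with chip as a term (-0.59) and with only these 2 groups in the fit (-0.45). The EGME75 calls for ValAAC and IleAAT held under every alternative and every left-out library.

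Of the other anticodons, ValCAC was 22677 to 53413 CPM at EGME0 (median 28730) and 34862 to 49646 at EGME75 (median 40598). All 10 EGME75 libraries were above the control median, but none exceeded the control maximum. The log2 change was -0.08 ± 0.15, 0.14 ± 0.15 and 0.31 ± 0.15 at the rising doses, and at EGME75 the adjusted p was 0.0677 by edgeR. It passed the threshold with DESeq2 (0.32, adjusted p = 0.049), limma-voom (0.37), library totals alone (0.71) and without any of EGME0 replicate 26 or 33, EGME50 replicate 12 or 28, EGME60 replicate 38 or EGME75 replicate 24 (0.38 to 0.49).

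ValTAC was 8702 to 21085 CPM at EGME0 (median 17790) and 8890 to 20666 at EGME75 (median 17045). The groups covered the same range, and the change of -0.02 ± 0.22 (edgeR adjusted p = 0.921) had a 95% interval of -0.45 to 0.41. IleTAT was 236 to 1144 CPM at EGME0 (median 569) and 260 to 1115 at EGME75 (median 443), with a change of -0.27 ± 0.27 (edgeR adjusted p = 0.402). Its 95% interval was -0.80 to 0.26, so neither a moderate fall nor a small rise could be told from no change. At EGME60 IleTAT changed by -0.42 ± 0.28 (edgeR adjusted p = 0.276), and without EGME60 replicate 38 it was at -0.67 and passed.

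**Figure D2:**
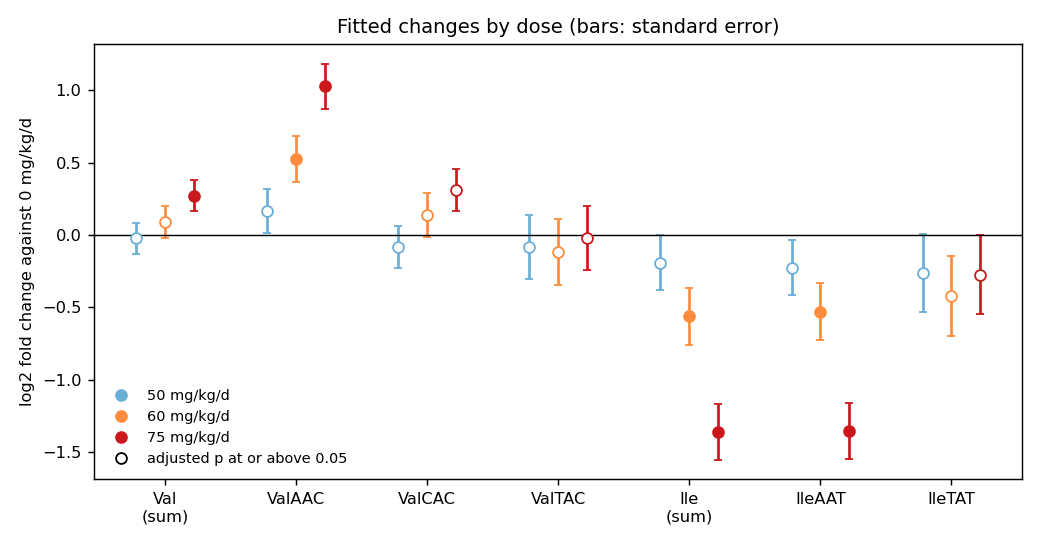
Log2 fold change against 0 mg/kg/d of the valine and isoleucine sums and of their 5 anticodons at each dose, with standard errors. Filled points passed the adjusted threshold of 0.05: at 75 mg/kg/d ValAAC stood at 1.03 and IleAAT at -1.35.

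Read against the whole table, 2 of the 5 anticodons were called at EGME75, against a background of 53.2% of the 47 tested (23.4% higher, 29.8% lower). The counts were 2 at EGME60 (background 31.9%, 14.9% higher and 17% lower), 2 for the slope (background 48.9%, 21.3% higher and 27.7% lower) and 0 at EGME50 (background 0.0%, with no anticodon called). No member reached an unadjusted p under 0.05 at EGME50, and DESeq2 and limma-voom also called 0. The median change over all anticodons was 0.01, 0.02 and 0.04 at the rising doses, and over the 5 members -0.09, -0.12 and -0.02. With library totals alone as scaling the median over all anticodons at EGME75 was 0.46, so values under that scaling need to be read against it, and over all rows it was 0.39 in place of 0.16. Relative to the median of all anticodons, ValAAC was 0.85 to 1.27 higher and IleAAT -1.45 to -1.32 over all 9 alternatives.

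Summed over each amino acid, valine and isoleucine went opposite ways at EGME75. The summed valine level ran from 42186 to 70098 CPM at EGME0 (median 62145) and from 57052 to 89015 at EGME75 (median 70520), with 5 of 10 libraries above every control. Its log2 change was -0.02 ± 0.11 at EGME50, 0.09 ± 0.11 at EGME60 and 0.27 ± 0.11 at EGME75 (edgeR adjusted p = 0.0242). With library totals alone as scaling the EGME75 value was 0.77, where the median of all amino acid sums was 0.56 in place of 0.07. The valine call was lost without EGME0 replicate 25 (0.23) or EGME75 replicate 39 (0.23), and its slope of 0.22 ± 0.10 did not pass (adjusted p = 0.0748). The summed isoleucine level was 12226 to 17359 CPM at EGME0 (median 13688) and 2077 to 8248 at EGME75 (median 6061), with no overlap. Its change was -0.19 ± 0.19, -0.56 ± 0.20 (edgeR adjusted p = 0.0279) and -1.36 ± 0.19 (adjusted p = 2.20e-07) at the rising doses. The EGME60 call was lost without EGME0 replicate 18 or EGME60 replicate 14, 22 or 29 (-0.52 to -0.45). Of 21 amino acid sums, 0.0% were called at EGME50. At EGME60 the background was 28.6%, made up of 19% higher and 9.52% lower. It was 57.1% at EGME75, of which 23.8% were higher and 33.3% lower, and the slope gave 52.4% (23.8% up, 28.6% down).

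Ratios within a library do not depend on how libraries are scaled. The ratio of summed valine to summed isoleucine counts had a geometric mean of 4.01 in the controls, which compares with 4.59 at EGME50, 6.64 at EGME60 and 13.4 in EGME75 libraries. On the log2 scale it ran from 1.64 to 2.40 at EGME0 (median 2.05) and from 2.92 to 5.25 at EGME75 (median 3.70), with no overlap. The difference from control was 0.19 ± 0.12, 0.73 ± 0.21 (exact permutation test, adjusted p = 0.00216, n = 9 against 10) and 1.74 ± 0.22 (permutation test, adjusted p = 0.0003, raw p = 2e-05). All p-values are two-sided and adjusted over 15 tests.

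Within valine, the ratio of ValAAC to ValCAC was 0.66 ± 0.13 higher at EGME75 on the log2 scale (permutation test, adjusted p = 0.0009), and 8 of 10 libraries exceeded every control. At EGME60 the difference was 0.33 ± 0.20 (exact permutation test, adjusted p = 0.226), and without EGME60 replicate 6 it was 0.47 and passed. The ratio of ValAAC to ValTAC was 1.02 ± 0.21 higher at EGME75 (permutation test, adjusted p = 0.0019) and 0.70 ± 0.26 higher at EGME60 (exact permutation test, adjusted p = 0.0353). The EGME60 value lost its call without any of 11 libraries, which were EGME0 replicates 1, 2, 9, 10, 17, 18 and 34 and EGME60 replicates 6, 21, 22 and 38, at 0.57 to 0.70. The ratio of ValCAC to ValTAC differed by 0.36 ± 0.29 at EGME75 and did not pass (permutation test, adjusted p = 0.374).

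Within isoleucine, the log2 ratio of IleAAT to IleTAT ran from 3.80 to 5.84 at EGME0 (median 4.54) and from 2.06 to 4.27 at EGME75 (median 3.33). All 10 EGME75 libraries lay below the control median and 7 below every control. The difference was -1.21 ± 0.31 (permutation test, adjusted p = 0.00216), while at EGME50 and EGME60 it was -0.02 ± 0.25 and -0.17 ± 0.31. At EGME75 IleAAT was lower relative to the other isoleucine anticodon as well as to control.

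**Figure D3:**
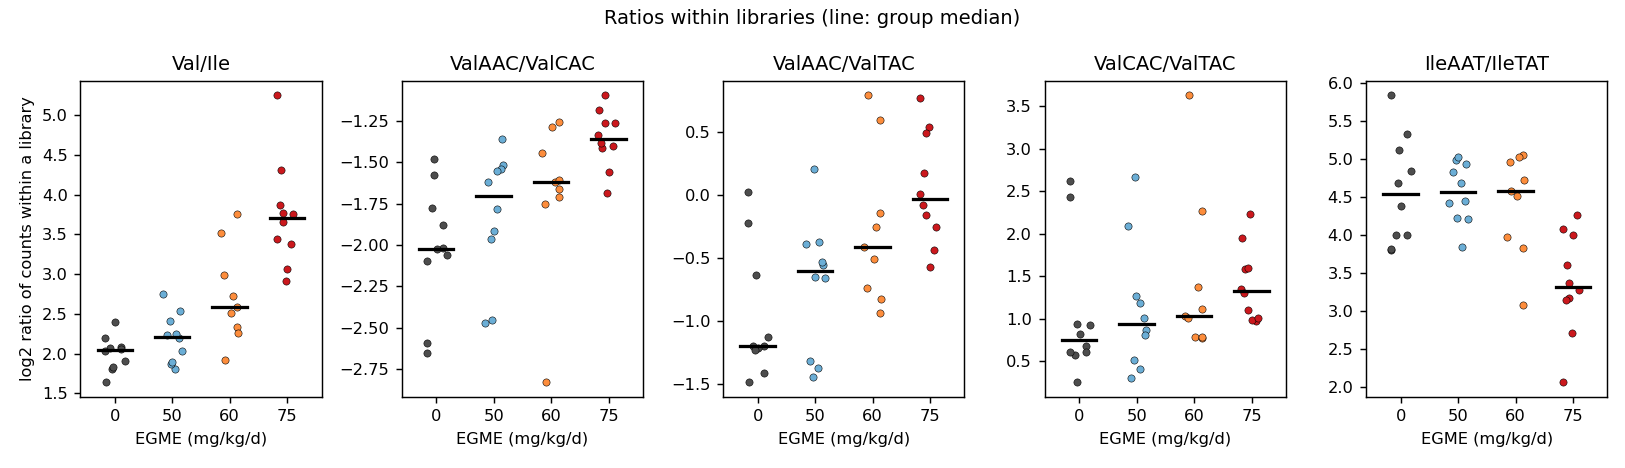
Log2 ratio of counts within each library (points) for valine over isoleucine and for the pairs of anticodons, by dose in mg/kg/d, with the group median as a line. Valine over isoleucine at 75 mg/kg/d (2.92 to 5.25) clears the control range (1.64 to 2.40), and ValCAC over ValTAC overlaps it.

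At the level of distinct genes, 11 of the 17 tested rows were called at EGME75, 6 higher and 5 lower, against a background of 64.7% of 190 tRNA rows (36.8% higher, 27.9% lower). The share called is close to that of the whole table. The rows called higher at EGME60, at EGME75 and for the slope include the scarce trna3867-ValCAC. It passed the filter on low counts largely through the dosed groups where it was high, as given below. The counts were 4 at EGME60, all higher (background 21.6%, 18.9% higher and 2.63% lower), 11 for the slope (6 higher, 5 lower, background 61.1%, 37.9% higher and 23.2% lower) and 0 at EGME50 (background 0.0%). DESeq2 and limma-voom also called 0 at EGME50, and 1 of the 17 reached an unadjusted p under 0.05, trna1308-ValAAC at 0.35 ± 0.16. Rows and anticodon sums were scaled in separate fits, so their changes are offset from each other. At EGME75 the median was 0.16 over all rows and 0.04 over all anticodons, and at EGME60 0.14 and 0.02. Relative to these medians at EGME75, trna1307-ValCAC was at 0.33 and the ValCAC sum at 0.26. For trna6858-ValTAC and the ValTAC sum the values were 0.01 and -0.07. Other settings shifted the split of the members and of the whole table. Without the filter 4 members were higher and 6 lower at EGME75, as were 62 and 72 of all 239 rows. With all rows as deposited 4 and 5 were, and 202 of all 338 rows, equally many in each direction. With RLE scaling 3 members were higher and 2 lower at EGME60, as were 34 and 26 of all 190 rows, against 36 and 5 with TMM scaling. Without EGME0 replicate 33, 7 rows were called at EGME60.

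The rows of ValAAC did not move alike. The genes behind trna1308-ValAAC (a set of 4 with identical counts, represented by a row on chromosome 10) were at 3652 to 5628 CPM at EGME0 (median 4445), 4062 to 9071 at EGME50 (median 5480), 4626 to 11690 at EGME60 (median 7952) and 8485 to 19806 at EGME75 (median 12544). The EGME75 libraries did not overlap the controls, and 8 of 9 at EGME60 were above every control. The log2 change was 0.82 ± 0.16 at EGME60 (edgeR adjusted p = 3.27e-04) and 1.45 ± 0.16 at EGME75 (adjusted p = 2.73e-09), the latter 2.73-fold.

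On chromosome 17, trna1631-ValAAC was at 2248 to 3488 CPM at EGME0 (median 2843) and 3572 to 6890 at EGME75 (median 4571), again without overlap. It rose by 0.79 ± 0.13 at EGME75 (edgeR adjusted p = 1.57e-06). Its ratio to trna1308-ValAAC, a comparison added after the data had been seen, fell by 0.64 ± 0.09 at EGME75 (permutation test, adjusted over 33 ratio tests, p = 0.00066, no overlap with control). The increase of ValAAC was unequal between its distinct rows. Over the libraries the count of trna1631-ValAAC was 33.8% to 80.4% of that of trna1308-ValAAC (Pearson correlation 0.956). Whether these rows share reads was not tested, and if they do, the ValAAC sum counts such reads more than once. The scarce trna1607-ValAAC, also on chromosome 17, changed by -0.01 ± 0.30 and did not pass. Its ratio to trna1308-ValAAC was 1.34 ± 0.45 lower at EGME75 (permutation test, adjusted p = 0.0489), a call lost with a pseudocount of 1 (-1.30) or without any of 14 libraries (EGME0 replicates 1, 9, 10, 17, 26, 33 and 34, EGME75 replicates 7, 8, 15, 31, 32, 39 and 40). Over all left-out libraries it ran from -1.59 to -1.13. Of the 33 ratio tests 6 passed, all at EGME75, and each is named here.

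Among ValCAC genes, trna1610-ValCAC on chromosome 17 stood apart. It was at 252 to 743 CPM at EGME0 (median 509), 338 to 1066 at EGME50 (median 714), 187 to 1256 at EGME60 (median 806) and 801 to 2546 at EGME75 (median 1254). Its change was 0.79 ± 0.26 at EGME60 (edgeR adjusted p = 0.0187) and 1.52 ± 0.26 at EGME75 (adjusted p = 3.65e-06), and no EGME75 library overlapped the controls. The abundant near copies changed less. At 11372 to 23757 CPM at EGME0 (median 13464) and 17089 to 28749 at EGME75 (median 20667), trna1307-ValCAC rose by 0.49 ± 0.15 (edgeR adjusted p = 0.00496), with overlap, and trna1600-ValCAC gave 0.51 ± 0.15. The ratio of trna1610-ValCAC to trna1307-ValCAC rose by 0.97 ± 0.30 at EGME75 (permutation test, adjusted p = 0.0139). Between the near copies the ratio of trna1600-ValCAC to trna1307-ValCAC differed by 0.01 ± 0.004 (permutation test, adjusted p = 0.00066). The rise of the abundant pair depended on which rows entered the fit. It held with RLE scaling (0.44 for trna1307-ValCAC) and library totals alone (0.67), but trna1307-ValCAC was at 0.29 without the filter and at 0.11 with all rows as deposited, trna1600-ValCAC at 0.30 and 0.13, and none of these passed.

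Leaving out any of 6 libraries (EGME50 replicate 36, EGME60 replicate 38 or EGME75 replicate 7, 24, 31 or 40) shifted the changes over the whole table of rows. The median over all rows at EGME75, 0.16 in the full fit, then lay between -0.13 and -0.04. The filter and the scaling were both redone in each fit, and their parts in this shift were not tested. In those fits trna1307-ValCAC was at 0.22 to 0.32 and was not called, and trna1600-ValCAC was not called in 4 of them, without EGME60 replicate 38 or EGME75 replicate 7, 24 or 40 (0.23 to 0.32). Relative to the median of all rows, trna1307-ValCAC was at 0.33 in the full fit and at 0.27 to 0.45 over all left-out libraries, and trna1308-ValAAC at 1.29 and 1.23 to 1.35. At EGME60 the same 6 libraries ended the calls of trna1610-ValCAC (0.53 to 0.57) and of trna1631-ValAAC, which was at 0.43 ± 0.13 (edgeR adjusted p = 0.0133) in the full fit and 0.19 without them. The call of trna1631-ValAAC at EGME60 also ended with RLE scaling (0.32), library totals alone (0.49), no filter (0.30), all rows as deposited (0.17) and DESeq2 (0.33), and that of trna1610-ValCAC without the filter (0.64), with all rows as deposited (0.55) and with limma-voom (0.71).

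The scarce trna3867-ValCAC, named here for completeness and outside the naming rule, averaged 6.08 counts per library. It had 0 to 5 counts at EGME0 (median 2.0) and 0 to 25 at EGME75 (median 7.0), and its changes of 1.85 ± 0.55 at EGME60 and 2.09 ± 0.56 at EGME75 rest on few reads. The EGME60 call was lost with limma-voom (1.45), with chip as a term (1.13) and without EGME60 replicate 38 (1.45). For ValTAC, the abundant trna6858-ValTAC (a pair of identical rows) changed by 0.17 ± 0.22 and trna7279-ValTAC by 0.03 ± 0.21 at EGME75, and neither passed. Without the filter trna6858-ValTAC stood at -0.04.

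**Figure D4:**
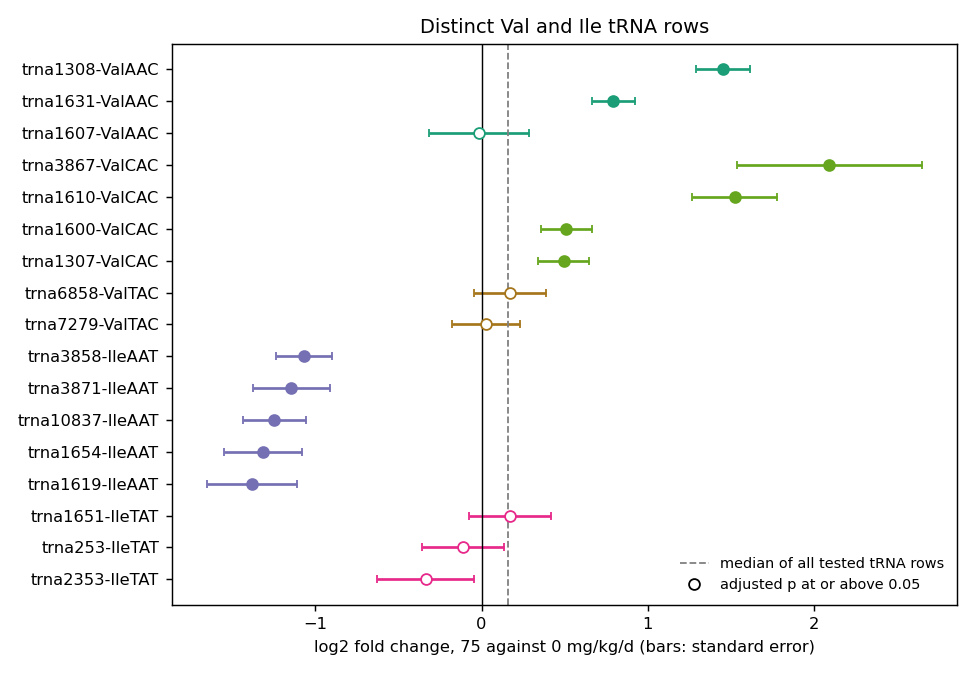
Log2 fold change at 75 against 0 mg/kg/d for the 17 tested distinct valine and isoleucine rows, grouped by anticodon, with standard errors. The dashed line is the median of all tested tRNA rows (0.16), filled points passed the threshold, and all 5 IleAAT rows lie at or below -1.07.

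The IleAAT rows, in contrast, fell together, though rows that share reads are not independent and such sharing was not tested. The set of 6 identical rows behind trna10837-IleAAT was at 2943 to 5362 CPM at EGME0 (median 4436), 2658 to 5444 at EGME50 (median 3810), 1641 to 6601 at EGME60 (median 2929) and 739 to 2527 at EGME75 (median 1781). It fell by 1.25 on the log2 scale at EGME75, with a standard error of 0.19 (edgeR adjusted p = 7.78e-07), and did not overlap the control. On chromosome 17, trna3858-IleAAT likewise did not overlap, at 2834 to 4367 CPM at EGME0 and 790 to 2294 at EGME75 (-1.07 ± 0.17). The changes were -1.38 ± 0.27 for trna1619-IleAAT, -1.32 ± 0.24 for trna1654-IleAAT and -1.14 ± 0.23 for trna3871-IleAAT, all on chromosome 17. Their EGME75 libraries all lay below the control median, and 9, 7 and 7 of 10 below every control. None of the 4 ratios of IleAAT rows to trna10837-IleAAT passed at EGME75. The nearest was trna3858-IleAAT, at 0.20 ± 0.08 (permutation test, adjusted p = 0.0533). At EGME60 no IleAAT row was called, although their sum was, and the changes ran from -0.57 ± 0.24 for trna3871-IleAAT to -0.24 ± 0.17 for trna3858-IleAAT. Rows and sums differ in scaling. Relative to the median of all rows, these 2 rows were at -0.71 and -0.38 and trna10837-IleAAT at -0.55. The IleAAT sum was at -0.55 relative to the median of all anticodons.

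The 3 IleTAT rows overlapped the control at every dose and none was called. At EGME75 trna1651-IleTAT changed by 0.17 ± 0.25, trna253-IleTAT by -0.11 ± 0.25 and trna2353-IleTAT by -0.34 ± 0.29. Within libraries they separated: the ratio of trna2353-IleTAT to trna1651-IleTAT was 0.51 ± 0.14 lower at EGME75 (permutation test, adjusted p = 0.0066), and that of trna253-IleTAT to trna1651-IleTAT was 0.27 ± 0.07 lower (permutation test, adjusted p = 0.00286). At EGME0 the latter ratio had a geometric mean of 0.989, and at EGME75 it was 0.820. If these rows share reads, the IleTAT sum counts them more than once, which was not tested.

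The other 6 distinct rows did not pass the filter on low counts. The highest was trna5590-IleAAT, with a mean of 1.51 counts per library. Both chromosome X rows, trna2719-ValTAC and trna4168-ValTAC, had 7 and 11 counts in all. The remaining ones were trna3866-ValCAC with 14 counts in all, trna552-ValAAC with 38 and trna7576-ValAAC with 1.

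Other tRNAs were compared through lists chosen with earlier results of these data known. Of the 5 leucine anticodons, which carry the third branched-chain amino acid, 2 were lower and 0 higher at EGME75, where 29.8% of all 47 anticodons were lower and 23.4% higher. LeuCAA changed by -1.45 ± 0.24 and LeuTAA by -1.45 ± 0.24, close to IleAAT, while the list's median was 0.28 against 0.04 for all anticodons. Of the 8 anticodons that begin with a genomic A, 3 were higher and 2 lower at EGME75, with a median of 0.42. ThrAGT rose by 2.32 ± 0.28, ValAAC and ProAGG (0.64 ± 0.18) also rose, and SerAGA (-1.31 ± 0.19) fell with IleAAT. Of the 8 anticodons known for fragments in mammalian sperm, 4 were higher and 0 lower at EGME75, with a median of 0.57. LysCTT rose by 1.79 ± 0.30, GluCTC by 1.77 ± 0.33 and HisGTG by 0.83 ± 0.18, together with ValAAC. With library totals alone as scaling the counts at EGME75 were 3 higher and 2 lower for leucine, 6 and 2 for the anticodons with a genomic A, and 7 and 0 for those known from sperm, while 28 of all 47 anticodons were then higher and 10 lower. None of the 3 lists had a member called at EGME50 in the fit with TMM scaling.

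Across the 39 libraries the anticodons whose levels most resembled the isoleucine sum were ArgTCT (Spearman's rho 0.882) and LeuCAA (0.833). Those most like the valine sum were HisGTG (0.574) and ArgTCG (0.543). These are descriptions over libraries that share dose, depth and scaling.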

How the data were processed

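The authors deposited raw counts of sense-strand reads per feature, in tables of tRNA genes, miRNAs and RNAcentral entries used here. FastQC, Bowtie and DESeq2 are named without role or version in the submitters' processing notes, and the file headers give no counting program. How reads that fit several tRNA genes were counted is not given in the sources used here, so identical rows were taken as 1 row. Per the labels' protocols, total RNA was extracted with a mirVana kit including DNase, and Ion total RNA-seq libraries were made from 10 ng. The libraries ran on 13 chips of 3, with dose groups mixed over the chips. No deposited column was left unmatched.

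The whole tRNA table was fitted with edgeR 4.0.16 (R 4.3.3, limma 3.58.1) as 190 of 242 distinct rows, 47 of 49 anticodon sums and 21 amino acid sums kept by filterByExpr, leaving out 2 rows with no known anticodon from the sums. TMM scaling, robust quasi-likelihood tests and Benjamini-Hochberg adjustment within table and comparison were used. A slope on dose was fitted over the 4 groups. Ratios within libraries used a pseudocount of 0.5 and two-sided permutation tests of 100000 resamples, exact where a group had 9 samples. Alternatives were RLE scaling, library totals alone, no filter, all rows, DESeq2 1.42.0, limma-voom, chip as a term, the 2 groups alone, a pseudocount of 1 and leaving out each library. Tests were checked on simulated data: at EGME75, 44 of 59 rows changed by 1 (log2) were called among 188 rows (22 of 59 for the slope), and 0 unchanged rows. The simulated rows were independent, and changes at EGME75 alone were balanced between up and down. In the data 64.7% of rows were called at EGME75 and some rows share reads. The simulation therefore does not give the rate of false calls here.

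Named were all 5 anticodons, the most abundant row of each, and in each comparison the 3 highest and 3 lowest called rows with a mean of at least 10 counts, or the row with the smallest p where none passed, and the 2 anticodons most like each amino acid sum. Other rows were named as complete sets after their values were seen. The members and lists were chosen with earlier results of these data known. No tRNA sequence was at hand, so none is shown.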

Additional observations from a re-analysis of the deposited data

Results flagged for a closer look

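Among 40 groups checked (5 anticodon levels and 5 ratios in 4 dose groups) 2 libraries stood apart from the rest of their group, where chance alone gives about 1 in 20 groups. IleTAT in EGME75 replicate 23 was at 1115 CPM, while the other 9 EGME75 libraries ran from 260 to 654 CPM. The log2 ratio of ValAAC to ValCAC in EGME60 replicate 6 was -2.83, while the other 8 EGME60 libraries ran from -1.75 to -1.26.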

How the results depend on the processing

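No paired analysis was possible because no replicate number occurred in more than 1 dose group. At EGME60 limma-voom called 2 rows in place of 4, and library totals alone, no filter, chip as a term and the 2 groups alone each called 1 anticodon in place of 2. The valine sum changed sign at EGME50 (0.0067 with library totals alone, 9.2e-05 with limma-voom, 0.0022 with the 2 groups alone), and its slope passed with RLE scaling (0.26), library totals alone (0.65) and DESeq2 (0.26). The isoleucine sum lost its EGME60 call with library totals alone (-0.38). With chip as a term, the log2 ratios IleAAT to IleTAT (0.20) and valine to isoleucine (-0.014) changed sign at EGME50. Uncalled values that changed sign were ValTAC at EGME60 (0.16 with totals, 0.053 with chip), at EGME75 (0.43 with totals, 0.018 with no filter, 0.013 with all rows, 0.0022 with limma-voom, 0.030 with chip) and for the slope (0.35 with totals, 0.024 with chip). The others were ValCAC at EGME60 (-0.016 with the most abundant row alone), IleTAT at EGME75 (0.078 with totals), trna6858-ValTAC at EGME75 (-0.038 with no filter, -0.19 with all rows) and trna1651-IleTAT at EGME75 (-0.032 and -0.20). The median over all anticodons at EGME75 was 0.049 with RLE scaling and 0.46 with library totals alone (0.044 with TMM), over all rows 0.12 and 0.39 (0.16), and over all amino acid sums 0.14 and 0.56 (0.074). At EGME60 the medians with library totals alone were 0.24, 0.22 and 0.35. Beyond these shifts the cause was not tested.

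Leaving out 1 library at a time gave 3 to 7 rows called at EGME60, 8 to 11 at EGME75 and for the slope, 1 to 3 anticodons at EGME60 and 2 to 3 at EGME75. The valine sum then ran from -0.073 to 0.041 at EGME50, 0.23 to 0.36 at EGME75 and 0.18 to 0.28 for the slope, where 7 such fits passed. The isoleucine sum ran from -0.67 to -0.45 at EGME60. The log2 ratio ValAAC to ValCAC reached 0.47 at EGME60 (lowest 0.26), ValAAC to ValTAC ran from 0.57 to 0.81 at EGME60, ValCAC to ValTAC from -0.11 to 0.24 at EGME50, and IleAAT to IleTAT from -0.11 to 0.12 at EGME50 and from -0.25 to 0.00083 at EGME60. Uncalled values with a change of sign were ValCAC at EGME50 (-0.15 to 0.034), ValTAC at EGME60 (-0.18 to 0.0047), at EGME75 (-0.088 to 0.048) and for the slope (-0.13 to 0.024), trna6858-ValTAC at EGME75 (-0.087 to 0.25) and trna1651-IleTAT at EGME75 (-0.084 to 0.28). The 134381 tRNA counts of EGME75 replicate 24 left scarce rows at or near 0 counts there, which limits what could be detected.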

Other observations

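The RNAcentral table, counted separately, held 18 entries named tRNA-Val or tRNA-Ile, of which 7 passed the filter. The isoleucine entries URS00007362AD and URS0000757938 are near copies, with means of 18.26 and 18.21 counts per library and the same median in every group. They were counted as separate entries here, and neither was called. None of the 7 was higher at EGME75. With TMM scaling 1 was lower, against 18% of all 2757 entries tested, whose median change was -0.62. With RLE scaling 3 were lower (49.5% of all, median -1.38), and with library totals alone 4 (34.8% of all, median -1.32). The entry lower under all 3 was a valine entry, URS00004517CF. Scaled to 1000000 counts of the library total, without TMM, it had 247 to 823 at EGME0 (median 599) and 5.07 to 292 at EGME75 (median 60.2). Its log2 change at EGME75 was -1.95 ± 0.39 with TMM scaling (edgeR adjusted p = 5.23e-05), -2.74 with RLE scaling and -2.70 with library totals alone. At EGME60 it was -1.05 ± 0.39 with TMM scaling, -1.53 with RLE scaling and -1.64 with library totals alone. In the tRNA gene table the valine sum changed by 0.27 ± 0.11 at EGME75. How reads were shared between the tables is not given in the sources used here.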
